A study of Sus scrofa with 9 samples.

Results

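The genes of the mitochondrial respiratory chain were followed in testis biopsies of a boar carrying a balanced reciprocal translocation between SSC1 and SSC14, written t(1;14). They were taken as the genes whose name on the array begins with NDUF, SDHA to SDHD, UQCR, COX and a digit, or ATP5, or is CYC1. This rule found 172 of the 60889 probes, for 42 genes: 12 of complex I, 3 of complex II, 2 of complex III, 15 of complex IV and 10 of complex V. Each gene was read from the probe with the highest mean in the deposited log2 values, which held 150 of these probes and 40 of the genes. ATP5E and COX8H were read from their brightest tested probe. All 42 genes had a probe that passed the filter on low signals in each comparison.

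RNA was measured on 9 single-colour 60K porcine arrays, 3 for each of 3 groups. The t(1;14) arrays came from 1 oligo-astheno-teratospermic Landrace × Duroc carrier, labelled 2n=38,XY,trcp(1;14). The control and oligospermic arrays came from boars labelled 2n=38,XY. The methods name 3 fertile control boars with normal semen but not which boar each control array holds. How many boars the oligospermic arrays hold is not given in the sources used here, and their semen is known only from its label. No treatment or age is given in the labels. With 1 carrier, a p-value compares 3 arrays with 3 arrays and says nothing of carriers in general. It measures the spread between arrays, which lies within 1 boar for t(1;14) and may include differences between boars in the other groups. Between 37087 and 40632 probes per array were well above background. Each of the 3 slides held 1 array of each group.

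The respiratory chain passes electrons from NADH (complex I) and succinate (complex II) through complex III to cytochrome c and on to oxygen at cytochrome c oxidase (complex IV). The proton gradient it builds drives ATP synthase (complex V). Most subunits are nuclear genes, while COX1, COX2 and COX3, the catalytic core of complex IV, are transcribed from the mitochondrial genome. In the testis, germ cells change their fuel and several mitochondrial isoforms as they mature, the sperm midpiece is packed with mitochondria, and Leydig cells start steroid synthesis inside theirs.

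Probe sequences are shown for the results that turn on a particular probe. The 4 probes of COX2 gave different fold changes for the same transcript, so all 4 are printed, from the brightest to the dimmest, 5′ to 3′ as in the array files. Capitals mark the longest exact run shared by the last 2, of 32 bases, and their overlap goes on beyond a mismatch.

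COX2 A_72_P442181: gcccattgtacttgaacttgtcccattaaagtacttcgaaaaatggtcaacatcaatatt
COX2 A_72_P729033: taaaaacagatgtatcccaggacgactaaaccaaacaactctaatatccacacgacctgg
COX2 A_72_P751248: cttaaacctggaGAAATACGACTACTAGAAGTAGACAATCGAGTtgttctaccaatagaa
COX2 A_72_P746371: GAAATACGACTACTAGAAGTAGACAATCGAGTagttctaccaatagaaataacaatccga

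For COX1 and COX3 the probe used for the gene and the probe with the largest fold change follow, in that order, with no part singled out.

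COX1 A_72_P722313: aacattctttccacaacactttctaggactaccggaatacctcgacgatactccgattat
COX1 A_72_P752754: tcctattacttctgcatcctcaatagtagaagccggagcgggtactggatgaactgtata
COX3 A_72_P719538: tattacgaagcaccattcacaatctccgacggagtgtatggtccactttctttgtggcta
COX3 A_72_P750221: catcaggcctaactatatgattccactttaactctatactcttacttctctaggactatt

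Of the nuclear genes, the probe of ATP5S and the second, dimmer probe of NDUFA4L2 are given, since both genes fell.

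ATP5S A_72_P310968: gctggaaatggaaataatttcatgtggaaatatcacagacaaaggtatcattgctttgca
NDUFA4L2 A_72_P390968: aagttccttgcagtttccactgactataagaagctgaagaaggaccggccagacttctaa

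The first question was how the chain differed between the translocation carrier and the controls. In the t(1;14) boar, 16 of the 42 genes were higher and 4 were lower than in controls, by 1.44- to 3.75-fold and to between 0.319 and 0.637 of the control signal. COX7A1, SDHD, COX17, NDUFA4 and the c-ring genes ATP5G1 and ATP5G3 rose by more than 1 on the log2 scale. NDUFA4L2, ATP5S and the complex I assembly factors NDUFAF5 and NDUFAF6 fell. A gene was called at an adjusted p of at most 0.01 in limma, with the Benjamini-Hochberg method over 40643 probes. Of all tested probes, 31.2% were called (15.6% higher and 15.6% lower), against 20 of the 42 members (38.1% higher and 9.52% lower). The arrays of the 2 groups did not overlap for 29 members, against 62.0% of tested probes. The median log2 fold change was 0.33 over the members and 0.14 over all tested probes. None reached the methods' second threshold of 2 on the log2 scale, which 5.61% of tested probes passed together with the first.

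The 4 members that fell were 1 of the 35 structural subunits and 3 of the 7 assembly and coupling factors. With slide as a block the falls of the factors NDUFAF5 and NDUFAF6 were not called (limma adjusted p = 0.0118 and 0.0156). The subunits had 15 rises and a median log2 fold change of 0.43, against 15.6% of all tested probes called each way and their median of 0.14. The 7 factors had 1 rise, of COX17, a share near that background, and a median of -0.36, which was -0.41, -0.68 and 0.16 within the 3 slides. Against the oligospermic arrays the median of the factors was 0.19, with 4 of the 7 above 0. This split is a description, since it was drawn with the values known.

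**Figure D1:**
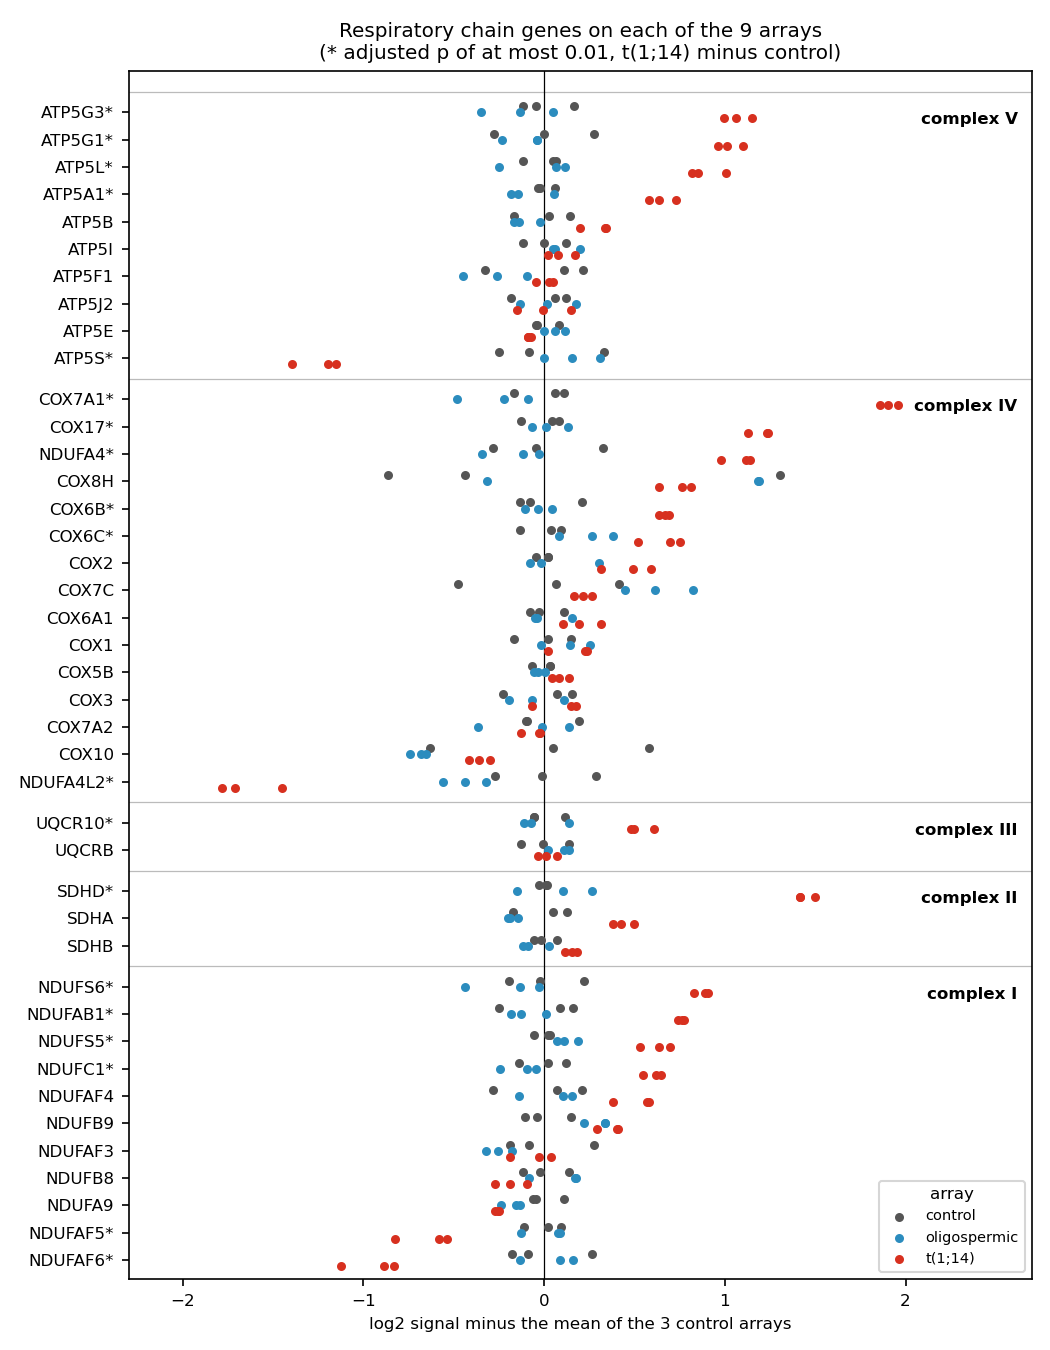
Each dot is the log2 signal of a respiratory chain gene on 1 array minus the mean of the 3 control arrays (control grey, oligospermic blue, t(1;14) red), with genes ordered by fold change within each complex and 1 complex I gene not shown. The 3 t(1;14) arrays of COX7A1 lie around the fold change of 1.90 and those of NDUFA4L2 around -1.65, while most oligospermic dots lie among the control dots.

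In complex I, the entry point for NADH, 5 of 12 genes rose and 2 fell, against 15.6% of all tested probes each way. NDUFS6, an accessory subunit of the electron input module, gave log2 signals of 12.21, 11.80 and 11.97 on the control arrays, 11.96, 11.86 and 11.56 on the oligospermic arrays and 12.82, 12.88 and 12.90 on the t(1;14) arrays. The t(1;14) arrays were above all others, and the rise was 0.88 ± 0.14 (SE) on the log2 scale with limma adjusted p = 0.00309. NDUFAB1, the acyl carrier protein of the mitochondrion, rose by 0.76 ± 0.14 at a low signal of 4.93 ± 0.22 in controls. With normexp background correction NDUFAB1 gave 0.29 and was not called (limma adjusted p = 0.0281). The accessory subunits NDUFS5 and NDUFC1 rose by 0.62 and 0.60.

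Both complex I genes that fell are assembly factors and are not part of the finished enzyme. NDUFAF6 gave 11.35, 10.99 and 10.91 on the control arrays, 11.24, 11.17 and 10.95 on the oligospermic arrays, and 10.20, 9.96 and 10.25 on the t(1;14) arrays. It was lower on every t(1;14) array, by 0.95 ± 0.16 (limma adjusted p = 0.0042). NDUFAF5, which modifies a core subunit during assembly, fell by 0.65 ± 0.13 (limma adjusted p = 0.00757). Neither fall was called with slide as a block. The other assembly factors were not called: NDUFAF3 gave -0.06 and NDUFAF4 0.51 (limma adjusted p = 0.0383). NDUFA9, NDUFB8 and NDUFB9 were not called either, with values between -0.26 and 0.37.

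Complex II oxidizes succinate and has no mitochondrially encoded subunit. Its membrane anchor SDHD had control signals of 11.08, 11.03 and 11.07, oligospermic signals of 11.33, 11.17 and 10.91 and t(1;14) signals of 12.48, 12.48 and 12.56. The t(1;14) arrays stood clear of the other 6, a rise of 1.44 ± 0.10 or 2.72-fold (limma adjusted p = 0.000175). Of the 7 SDHD probes, which share no run of 30 bases, 6 rose and the range was 0.67 to 1.44. The 2 catalytic subunits changed less. SDHA, the flavoprotein, gave 0.43 ± 0.12 (limma adjusted p = 0.0268), and SDHB, the iron-sulphur protein, 0.15 ± 0.10 (limma adjusted p = 0.261). None of the 8 SDHB probes was called, with a range from -0.26 to 0.15.

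Complex III was represented by 2 small subunits. UQCR10 rose by 0.53 ± 0.11 (limma adjusted p = 0.0094), from 14.05 ± 0.10 to 14.58 ± 0.07. UQCRB gave 0.02 ± 0.12 (limma adjusted p = 0.917), and its 7 probes, many of them overlapping, lay between -0.05 and 0.04. No probe carried the name CYC1 or UQCRFS1, the nuclear electron-carrying subunits of this complex. Its mitochondrially encoded subunit, cytochrome b (CYTB), lies outside the rule and was read with the other mitochondrial transcripts, where 15 of 21 probes were higher.

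Complex IV held the largest rise and the largest fall among the members. COX7A1, the isoform of subunit VIIa typical of heart and skeletal muscle, gave 10.17, 10.22 and 9.94 in controls, 10.02, 9.89 and 9.63 on the oligospermic arrays and 11.97, 12.07 and 12.01 in the t(1;14) boar. Every t(1;14) array was above every other array, and the difference from controls was 1.90 ± 0.12 or 3.75-fold (limma adjusted p = 0.000149). Its second probe, which shares 31 bases with the first, gave 1.95. COX7A2, the isoform found in most tissues, did not pass the test at -0.06 ± 0.13 (limma adjusted p = 0.716), but its probe was saturated on 2 control and 1 t(1;14) arrays, and its other probes reached -0.45. No probe was named for the heart isoform COX6A2, and COX6A1 gave 0.20 ± 0.12 (limma adjusted p = 0.19).

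NDUFA4 and NDUFA4L2 encode alternative forms of another complex IV subunit, the second known for its induction by hypoxia. NDUFA4 had signals of 13.28, 12.67 and 12.91 in controls, 12.93, 12.84 and 12.61 on the oligospermic arrays and 13.93, 14.10 and 14.07 in the t(1;14) boar. It rose by 1.08 ± 0.18 (limma adjusted p = 0.00352), and its 6 probes all lay between 0.97 and 1.15. NDUFA4 is the name of 2 loci, on SSC9 and SSC13, in the RefSeq gene table of Sscrofa11.1, so which of them the probes read is uncertain. NDUFA4L2 gave 8.54, 8.80 and 9.09 in controls, 8.49, 8.25 and 8.37 on the oligospermic arrays and 7.03, 7.36 and 7.10 in the t(1;14) boar. It moved the other way, falling by 1.65 ± 0.18 to 0.319 of the control signal (limma adjusted p = 0.000761). The second NDUFA4L2 probe, printed above, gave -1.84 and was not called.

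COX17, which hands copper to the oxidase, rose by 1.20 ± 0.11 (limma adjusted p = 0.000461). Its control arrays read 12.23, 12.06 and 12.27 and its t(1;14) arrays 13.42, 13.31 and 13.42, with no overlap. All 4 probes rose, and some share up to 54 bases. COX10, which takes part in making the haem A of the oxidase, gave -0.36 ± 0.30 (limma adjusted p = 0.348). Of the remaining nuclear subunits, COX6B and COX6C rose by 0.67 and 0.66, and COX5B, COX7C and COX8H were not called. COX8H was well above background on only 1 control array and on all 3 t(1;14) arrays.

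ATP synthase combines a catalytic head, a rotating c-ring and connecting stalks. The c-ring genes ATP5G3 and ATP5G1, which encode the same mature protein with different import signals, rose by 1.07 ± 0.12 (limma adjusted p = 0.000967) and 1.03 ± 0.16 (limma adjusted p = 0.00326). ATP5G3 gave 13.32, 13.04 and 13.11 in controls, 13.20, 13.02 and 12.80 on the oligospermic arrays and 14.15, 14.22 and 14.30 in the t(1;14) boar. ATP5G1 gave 12.18, 11.62 and 11.90, then 11.86, 11.86 and 11.66, then 12.86, 13.00 and 12.91 in the same order of groups. For both genes the t(1;14) arrays lay above the other 6.

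The head subunit ATP5A1 (alpha) rose by 0.65 ± 0.11 (limma adjusted p = 0.0036). Its 14 probes all pointed up, between 0.44 and 0.74, and 7 were called. ATP5B (beta), its partner in the head, gave 0.29 ± 0.13 (limma adjusted p = 0.098), with none of 10 probes called. ATP5E, ATP5F1, ATP5I and ATP5J2 lay between -0.08 and 0.09 and were not called. The ATP5E probe was saturated on 1 control and 1 oligospermic array, and the other ATP5E probe, which was not saturated, gave 0.75 and was called. ATP5L, subunit g of the membrane part, rose by 0.89 ± 0.12 (limma adjusted p = 0.00158) on the probe used here, whose signal was near 7, whereas a brighter probe of ATP5L outside the deposited log2 values gave 0.15.

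ATP5S, also called coupling factor B, fell. It gave 10.73, 11.31 and 10.90 in controls, 10.98, 11.13 and 11.29 on the oligospermic arrays and 9.78, 9.58 and 9.82 in the t(1;14) boar. The t(1;14) arrays were below the other 6, by 1.25 ± 0.18 on the log2 scale against controls (limma adjusted p = 0.00217).

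**Figure D2:**
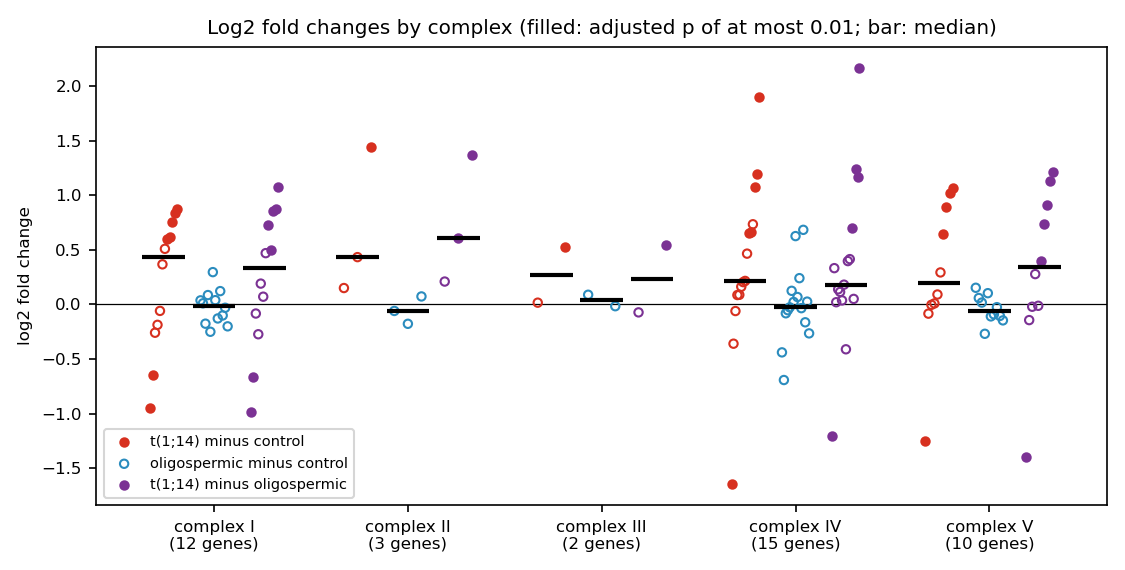
Log2 fold changes of the members by complex in the 3 comparisons (1 dot per gene, filled where the adjusted p was at most 0.01, with a bar at the median). The medians of t(1;14) minus control lie between 0.19 for complex V and 0.44 for complex I, and no dot of oligospermic minus control is filled.

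By complex, the median log2 fold change of t(1;14) against control was 0.44 for complex I, 0.43 for complex II, 0.27 for complex III, 0.22 for complex IV and 0.19 for complex V. These medians and their order changed with the processing, as given further below. Within the 3 slides the median over all 42 members was 0.27, 0.38 and 0.30. All 20 called genes kept their direction in every other setting tried. How many passed the threshold depended on the arrays: between 5 and 17 did when an array was left out, with 5 without t(1;14) array 1 or 3, 7 without t(1;14) array 2 and 10 without control array 3. Of all tested probes, 14.9%, 13.5%, 18.6% and 23.3% were called without t(1;14) array 1, 3 and 2 and without control array 3. Counting both directions, the members' share of calls in these 4 fits was near or below that of the array. In the same order, rises made up 80.0%, 80.0%, 85.7% and 70.0% of the few member calls. Over all tested probes they made up 36.5%, 33.5%, 38.3% and 43.9% of the calls. COX7A1, SDHD, COX17, ATP5G3 and NDUFA4L2 were called in all 6 fits that left out an array. With slide as a block 10 were called: NDUFS6, SDHD, COX7A1, NDUFA4, NDUFA4L2, COX17, ATP5G1, ATP5G3, ATP5L and ATP5S. That is 10 of 42, against 24.2% of all tested probes in the same fit. Counting both directions, the members' share with the slide block was near that of the array. By direction, 80.0% of these 10 calls were rises, against 44.7% of the calls over all tested probes. Without slide 1 also 10 were called, against 20.6% of all tested probes. With 75th percentile scaling the rises of NDUFS5, NDUFC1, UQCR10, COX6B, COX6C and ATP5A1 were not called.

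The 3 mitochondrially encoded members did not pass the test on the probes used for them. COX1 gave 0.16 ± 0.13 (limma adjusted p = 0.346), COX2 0.47 ± 0.12 (limma adjusted p = 0.018) and COX3 0.09 ± 0.15 (limma adjusted p = 0.648). The COX3 probe was saturated on all 3 t(1;14) arrays, so its value is only a bound, at least 1.06-fold. The COX2 probe was called higher with normexp background correction (0.49, limma adjusted p = 0.0033) and with an intensity trend in limma (adjusted p = 0.0038). The COX1 probe was saturated on 2 control, 2 oligospermic and 1 t(1;14) arrays.

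Their other probes read differently. Over the 41 probes of COX1, COX2 and COX3, the log2 fold change of t(1;14) against control ran from -0.09 to 1.78 and 10 probes were called, all higher, against 15.6% of all tested probes. The 24 brightest probes, with mean log2 signals of 15.53 to 16.18, had a median of 0.06, and 21 of them were saturated on at least 1 array. The 8 dimmest, with means of 13.47 to 14.37, had a median of 1.45 and a range from 0.70 to 1.78, 6 were called and none was saturated. The 4 COX2 probes, in the order printed above, gave 0.04, 0.47, 1.08 and 1.70 at mean signals of 15.74, 15.53, 14.67 and 13.62. The last 2 both rose, but they overlap, with an exact run of 32 bases, so they are not separate readings.

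The COX1 probe with the largest difference, A_72_P752754, gave 1.78 ± 0.15 (limma adjusted p = 0.000295), and the corresponding COX3 probe, A_72_P750221, gave 1.58 ± 0.17 (limma adjusted p = 0.000675). Across the 41 probes the fold change and the mean signal had Pearson r = -0.93 and Spearman rho = -0.91. Across the 16 probes never saturated they had r = -0.89 and rho = -0.90. These probes share 3 target transcripts and some overlap, so the values describe the probes and carry no test. With scaling by the 75th percentile in place of quantile normalization, the 24 brightest probes had a median of 0.17 and the 8 dimmest 1.32.

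**Figure D3:**
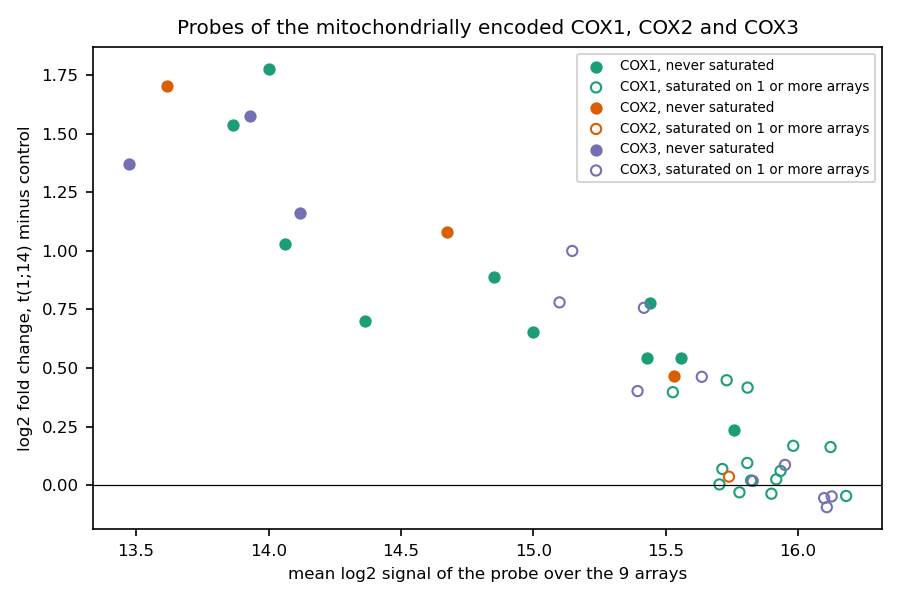
Log2 fold change of t(1;14) minus control against the mean log2 signal over the 9 arrays, for each of the 41 probes of COX1, COX2 and COX3 (open circles: saturated on 1 or more arrays). The 8 dimmest probes lie between 0.70 and 1.78, and the 24 brightest have a median of 0.06.

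The 10 other subunits of the mitochondrial genome, which the rule does not take, were read in the same way. On the probes of highest mean, 7 of the 13 mitochondrially encoded subunits were higher in t(1;14) than in control, 1 was lower and the median was 0.96. The complex I subunits ND1, ND2, ND3, ND4, ND4L and ND5 rose by between 0.96 and 1.41, and ATP8 of complex V by 1.73 ± 0.16 (limma adjusted p = 0.000436). The ATP6 probe of highest mean gave 0.05 but was saturated on 3 arrays. The 9 ATP6 probes, most of them saturated on at least 1 array, had a median of 0.76, with 4 called higher. Likewise the cytochrome b (CYTB) probe of highest mean gave 0.43 (limma adjusted p = 0.0428) and was saturated on 2 arrays. Of the 21 CYTB probes, with a median of 1.06, 15 were called higher. ND6, the only protein gene transcribed from the light strand, fell by 0.96 ± 0.20 (limma adjusted p = 0.00828), a call lost with scaling by the 75th percentile, where it gave -0.89. Of the 78 probes of these subunits other than ND6, all were above 0 and 65 were called (77 above 0 with normexp background correction), against 15.6% of all tested probes called higher. Many of these probes read the same transcript, so the counts describe the probes and carry no test.

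The second question was whether the oligospermic arrays, labelled with a normal karyotype, differed from controls. None of the 42 members was called, and 0.0755% of the 39713 tested probes were. At an unadjusted p under 0.05 there were 2 members, COX7C and NDUFA4L2, against 9.84% of tested probes, and 6 of the 42 members did not overlap between the groups, against 15.7%. The other settings in limma also called none. The median over the members was -0.03, and that of each complex lay between -0.06 and 0.04.

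COX7C gave 14.11, 13.76 and 13.22 on the control arrays and 14.52, 14.31 and 14.14 on the oligospermic arrays, a difference of 0.63 ± 0.25 (limma adjusted p = 0.473). The groups did not overlap, but the control arrays had an SD of 0.45. NDUFA4L2 gave -0.44 ± 0.17 (limma adjusted p = 0.481). The muscle isoform COX7A1 gave -0.27 ± 0.16 (limma adjusted p = 0.676). Within the 3 slides, which pair these arrays, COX7C differed by 0.41, 0.55 and 0.92, NDUFA4L2 by -0.05, -0.55 and -0.72 and COX7A1 by -0.15, -0.33 and -0.32, each with 1 sign. With slide as a block none passed the threshold, at limma adjusted p = 0.270 for COX7C, 0.410 for NDUFA4L2 and 0.450 for COX7A1.

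The third comparison set the t(1;14) boar against the oligospermic group and shares its arrays with the others. Of the 42 members 17 were higher and 4 lower in t(1;14), against 27.1% and 22.0% of 40567 tested probes (49.1% in all). The groups did not overlap for 32 members, against 70.9% of tested probes, and the median was 0.31 against 0.14 over all tested probes. COX7A1 was 2.17 ± 0.12 higher or 4.5-fold (limma adjusted p = 3.25e-05), the only member past both thresholds of the methods, which 6.82% of tested probes passed. SDHD was higher by 1.37 ± 0.13, NDUFA4 by 1.24 ± 0.12, ATP5G3 by 1.21 ± 0.13, COX17 by 1.17 ± 0.10, ATP5G1 by 1.13 ± 0.10 and NDUFS6 by 1.08 ± 0.13. NDUFA4L2 fell by 1.21 ± 0.12 and ATP5S by 1.40 ± 0.12.

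The spread between arrays was smaller in this comparison, with a median SD over tested probes of 0.18 for oligospermic and 0.13 for t(1;14) arrays, against 0.24 for controls. The catalytic subunits SDHA and ATP5B, not called against controls, passed the threshold here. SDHA was higher by 0.61 ± 0.08 (limma adjusted p = 0.00105) with signals of 11.78, 11.79 and 11.84 against 12.47, 12.36 and 12.41. ATP5B was higher by 0.40 ± 0.09 (limma adjusted p = 0.00936) and was not called when any of the 6 arrays was left out. COX6C, called against controls, gave 0.42 ± 0.12 (limma adjusted p = 0.0208). With slide as a block 22 members were called against oligospermic (18 higher, 4 lower): COX6C and NDUFAF4 were gained (limma adjusted p = 0.00724 and 0.00499) and ATP5B was lost (0.0101). In that fit 56.0% of all tested probes were called, so counting both directions the members' share was near that of the array. Rises made up 81.8% of the member calls there, against 55.4% of the calls over all tested probes. Of the 21 calls, 17 held in every fit that left out an array.

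Since the translocation joins SSC1 and SSC14, the members on these chromosomes were read separately, by the chromosome in RefSeq's Sscrofa11.1 gene table. SSC1 carries NDUFAF4, COX7A2, ATP5A1 and ATP5S, and SSC14 carries COX6A1, UQCR10 and NDUFB8. Of these 7 genes, ATP5A1 and UQCR10 rose and ATP5S fell in t(1;14) against control, with a median of 0.20, against 31.2% called and a median of 0.14 over all tested probes. The calls of ATP5A1 and UQCR10 were lost with slide as a block (limma adjusted p = 0.0122 and 0.0181). Of the other 35, those of the mitochondrial genome included, 14 rose and 3 fell, with a median of 0.37.

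Genes that work next to the chain were listed by function. Of 10 tested genes for chain assembly and electron carriers, 7 were higher in t(1;14) than in control and none lower, with a median log2 fold change of 0.80, against 15.6% each way and a median of 0.14 over all tested probes. Cytochrome c (CYCS), the carrier between complexes III and IV, gave 1.71 ± 0.33 (limma adjusted p = 0.00657). The electron transfer flavoprotein genes ETFA and ETFB, which take electrons from fatty acid oxidation, rose by 1.13 and 0.85, and ETFDH, which passes them on to ubiquinone, rose as well (limma adjusted p = 0.000449). TMEM126B, a complex I assembly factor, rose by 1.14 ± 0.13, and ATPIF1, the inhibitor of ATP synthase, by 0.76 ± 0.13. UQCC, a complex III assembly factor, rose by 0.64.

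Of 17 genes of pyruvate dehydrogenase and the citric acid cycle, 8 were higher and 1 lower, against 15.6% each of all tested probes, with a median of 0.51. SUCLG2, the GTP-forming subunit of succinyl-CoA ligase, rose by 1.60 ± 0.19, DLD, the shared dihydrolipoamide dehydrogenase, by 1.30 ± 0.13, malate dehydrogenase MDH2 by 0.86 ± 0.13 and citrate synthase CS by 0.66 ± 0.12. The kinase PDK1, which switches pyruvate dehydrogenase off, fell by 1.29 ± 0.15, while its relative PDK4 rose by 0.94 ± 0.19. With scaling by the 75th percentile 5 of the 17 were higher and 1 lower.

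Of 4 tested genes of mitochondrial biogenesis, TFAM and TFB1M were lower and none was higher, against 15.6% of all tested probes each way, with a median of -0.55. TFAM, which packages and transcribes mitochondrial DNA, fell by 1.63 ± 0.15 (limma adjusted p = 0.000391), and TFB1M, which modifies mitochondrial ribosomal RNA, fell by 0.87 ± 0.14 (limma adjusted p = 0.00364). POLG gave -0.23 and PPRC1 0.37. Of 6 carriers and porins, VDAC1 rose by 1.27 ± 0.15 and VDAC2 fell by 0.61 ± 0.11, a share of calls near the 31.2% of all tested probes. On the oligospermic arrays none of the genes of these 5 lists was called against control. TACO1, a translational activator of COX1, came closest there at 1.40 ± 0.16 (limma adjusted p = 0.0424), and it was 1.25 lower in t(1;14) than on the oligospermic arrays (limma adjusted p = 0.00034).

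**Figure D4:**
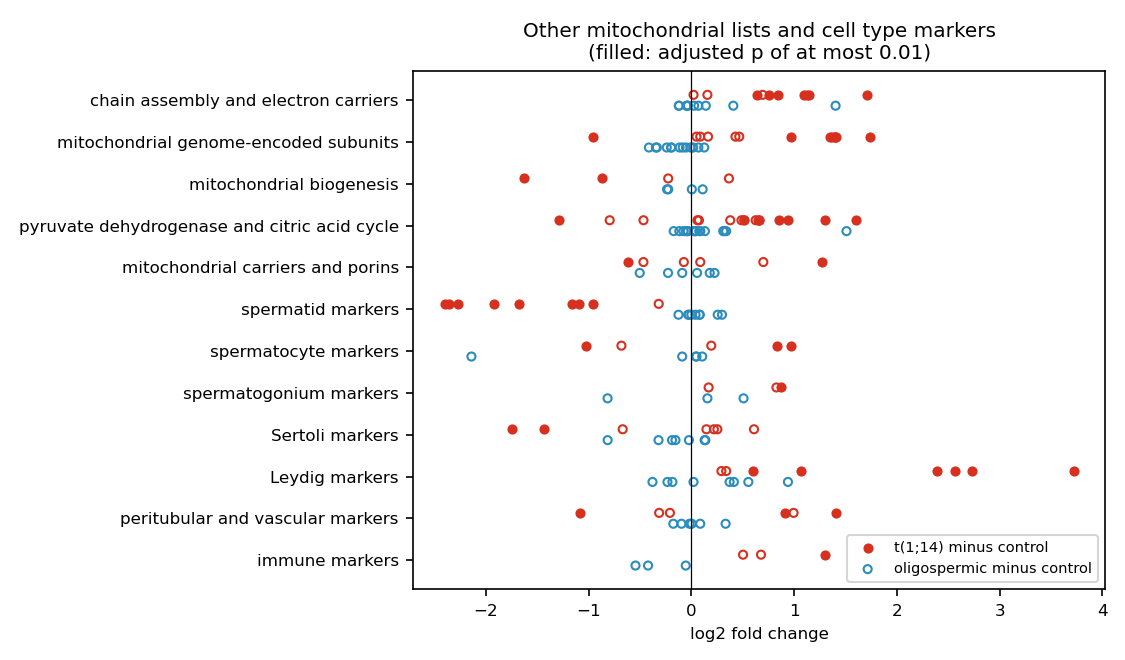
Log2 fold changes of single genes in the mitochondrial lists and in the cell type marker lists, for t(1;14) minus control (red) and oligospermic minus control (blue), filled where the adjusted p was at most 0.01. The red spermatid markers lie at or below -0.32 and the red Leydig markers between 0.29 and 3.72.

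The biopsies hold all cell types of the testis, so fewer cells of a type and less RNA per cell cannot be told apart. Marker genes of some cell types also differed between t(1;14) and control, in either direction. Of 9 tested spermatid markers 8 were lower in t(1;14) than in control and none was higher, against 15.6% of all tested probes each way, with a median of -1.68, and the summed signal of the list was 345425 to 380761 in controls, 376170 to 393655 on the oligospermic arrays and 153226 to 166034 in the t(1;14) boar. Of 8 Leydig cell markers 6 were higher and none lower, against the same 15.6%, with a median of 1.73, and the summed signal was 61625 to 64834, 48945 to 64964 and 123624 to 132270 in the same order. STAR, which carries cholesterol into the mitochondrion for steroid synthesis, rose by 3.72 ± 0.25 (limma adjusted p = 0.000162).

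In the other lists, read beside the 31.2% of all tested probes called, spermatocyte markers had 2 higher and 1 lower of 5, spermatogonium markers 1 higher of 3, Sertoli markers 2 lower of 7, peritubular and vascular markers 2 higher and 1 lower of 6 and immune markers 1 higher of 3. The summed signal of the Sertoli list, for which CLDN11 was the brightest, was 11776 to 21873 in controls and 22622 to 24100 in the t(1;14) boar. That of the spermatogonium list was 3198 to 4574 and 6318 to 6920, and that of the immune list 137 to 228 and 274 to 329, in the same order. The sums overlapped for the spermatocyte list, at 18636 to 19099 and 17375 to 19690. They also overlapped for the peritubular and vascular list, at 14115 to 25745 and 15242 to 20518. Every tested marker was well above background on at least 1 array of each group. The part of these cell types in the signal of the chain genes was not tested.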

How the data were processed

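Total RNA of testis biopsies was labelled with cyanine 3 and hybridized by the authors, and the spots were read with Agilent Feature Extraction 11.5.1.1. Deposited spot values are background-subtracted intensities, not scaled between arrays. The log2 values the authors deposited cover 38759 probes; these chose the probe of each gene and served as an alternative. Here the intensities were put on the log2 scale and made to share 1 distribution over all 9 arrays by quantile normalization. A probe was tested when it was well above background, with no outlier flag, on at least 2 of the 3 arrays of either group. The test was limma (version 3.58.1, under R 4.3.3) on the 6 arrays of a comparison, after a trial on simulated data. Of 42 member symbols, 42 were found in RefSeq's Sscrofa11.1 gene table.

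The members and lists were chosen with earlier results of these data known. Named genes were, in each complex, the called members with the 3 largest rises and falls, those past both thresholds, the catalytic subunits and isoform pairs present, members with probes called in opposite directions and members dim in a whole group; the others named were chosen after their values were seen. A gene of complex I that the rule would name and a probe sequence are not reported here.

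Same-numbered oligospermic and control arrays lay on the same slide, and their deviations had correlations of 0.493, 0.135 and 0.100. Arrays of different numbers reached 0.291 (oligospermic 3 with control 2) and 0.162 (oligospermic 2 with control 3). The pairing by number therefore rests on the slides, and the correlations single it out only for array 1. Same-numbered t(1;14) and control arrays lay on different slides (-0.291, -0.200 and 0.142). On the same slide t(1;14) and control arrays had 0.121, 0.347 and 0.114, but t(1;14) 1 with control 2, on different slides, had 0.190. For t(1;14) and oligospermic arrays the same slide gave 0.339, 0.498 and 0.299. Columns of sequence and saturation flags came from the same files. The number of arrays limits the precision.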

Additional observations from a re-analysis of the deposited data

How the results depend on the processing

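No called member changed sign in any setting for t(1;14) against control or against oligospermic. Against control, where 20 members were called (16 higher, 4 lower), 14 were called with 75th percentile scaling (10 higher, 4 lower), 10 with slide as a block, 10 without slide 1 (a setting chosen after seeing the data), 4 with the replicate number as a block (COX7A1, SDHD, COX17 and NDUFA4L2), 0 with the fold change threshold and 5 to 17 when an array was left out. Calls among the pathway lists went from 28 to 18, 12 and 16 with the slide block, the replicate block and without slide 1, to 0 with the fold change threshold, and to 13 to 26 with an array left out. Over all tested probes, 12668 calls became 5488 to 13109 with an array left out, 9848 with the slide block (24.2%), 8369 without slide 1 (20.6%) and 5288 with the replicate block (13.0%), so the members' share of calls was near or below that of all probes with either block. For oligospermic against control the replicate block, like every other setting, called no member; among the lists 1 gene was called with all 9 arrays in 1 model and 1 at an adjusted p of 0.05. For t(1;14) against oligospermic, 21 calls became 1 with the fold change threshold and 17 to 20 with an array left out, the replicate block gave 16, and the lists went from 35 to 1 and to 28 to 33. The cause of these changes was not tested.

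The median log2 fold change of the members against control, 0.33, became 0.238 with 75th percentile scaling, 0.223 with normexp background, 0.294 with the filter in both groups, 0.449 with the median over probes, 0.366 without slide 1 and 0.298 to 0.395 with an array left out. For complex I it was 0.302 and 0.348 with the 75th percentile and normexp and 0.358 to 0.494 with an array left out. For complex II it was 0.279 with the 75th percentile, 0.523 without slide 1 and 0.348 to 0.496 with an array left out, and for complex III 0.082 with the 75th percentile. For complex IV it was 0.142 with normexp, 0.567 with the median over probes, 0.380 without slide 1 and 0.191 to 0.423 with an array left out, and for complex V 0.058, 0.307 and 0.347 with the 75th percentile, the deposited log2 values and the median over probes.

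For oligospermic against control, complex IV gave 0.015, 0.0067, 0.037 and -0.0041 with the 75th percentile, normexp, the median over probes and without slide 1, and -0.044 to 0.025 with an array left out, when complex I gave -0.098 to -0.0008. For t(1;14) against oligospermic, the members gave 0.236, 0.366 and 0.480 with the 75th percentile, the deposited values and the median over probes and 0.287 to 0.360 with an array left out. With the 75th percentile complexes I to V gave 0.103, 0.415, 0.013, 0.239 and 0.181. Complex IV gave 0.136 with normexp, 0.259 with the deposited values, 0.333 with the median over probes, 0.2596 without slide 1 and 0.187 to 0.304 with an array left out, and complex V 0.496 with the median over probes. Saturation limits the brightest probes.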

Other observations

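Of the 172 member probes, 22 were outside the deposited log2 values, 13 of them for COX1, COX2 and COX3. Of these 13, 12 were saturated on at least 1 array, and their median log2 fold change of t(1;14) against control was 0.00, against 0.42 over all 41 probes of the 3 genes. Over the whole array, the median absolute log2 fold change of t(1;14) against control lay between 0.55 and 0.59 in each range of mean log2 signal up to 14, was 0.48 for the 831 tested probes from 14 to 15 and was 0.20 for the 564 probes at or above 15.

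Probes of a nuclear gene also differed. The 2 probes of ATP5E gave -0.08 at a mean signal of 15.52 and 0.75 at 8.85, the second called. Of the 3 probes of NDUFB9, which gave 0.08 to 0.73, 1 was called. All 5 probes of COX7A2 were below 0 against control, and 4 of them were called lower against the oligospermic arrays, none of them the probe used for the gene.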
